A study of Felis catus with 12 samples.

Results

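The genes described here are 9 genes of the cardiac action potential, chosen by name: the sodium channel gene SCN3A and the potassium or pacemaker channel genes KCNQ1, KCNE1, KCNH2, KCNJ2, KCNJ11, KCNIP2, KCND3 and HCN4. They are 9 of the 30785 genes listed. Together they held 2953 reads over 12 libraries, between 116 and 590 per library, and HCN4 had none. KCNIP2, the accessory subunit of the transient outward channel, varied most of the 5 members that could be tested: its normalised value spanned 27.3-fold over the libraries and moved with that of KCNH2. KCNJ2 and KCNIP2 were lower in most libraries of 1 flow cell, with differences that did not pass the adjusted threshold.

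RNA was isolated from left ventricular tissue that was collected after death from 12 client-owned domestic cats, and its molecules were sequenced directly with a nanopore kit, without a step through cDNA. Each cat gave 1 library, so that spread between libraries includes differences between cats, tissue pieces and library preparations, and no library was repeated. The labels group the libraries only by flow cell, the disposable chip on which a run takes place. Flow cell PAK20671 held cats 11, 23, 30 and 31, flow cell PAM73681 held cats 10, 15, 35 and 36, and flow cell PAM73696 held cats 37, 38, 29 and 22. The study carried out no procedure on living animals, and the labels give neither the age nor the disease of a cat. The study drew its cats from heart failure, arterial thromboembolism and comparator groups by cause of death, but the labels tie no library to any of these, and outcomes were not compared here. The numbers 22 and 29 are not in the study's list of sequenced cats. These 2 libraries were used between flow cells and left out of all relations with traits of the cats.

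Libraries held 789257 to 2263110 reads on genes, and 3 reads, taken as the limit of detection, corresponded to 1.33 to 3.8 CPM (reads scaled to a common total per library). All 8 ventricular cardiomyocyte markers had reads in every library, and they summed to 100339 to 154598 CPM. Fibroblast markers summed to 884 to 3012 CPM on flow cell PAK20671, 208 to 573 on PAM73681 and 699 to 1477 on PAM73696. Smooth muscle markers summed to 314 to 786 on PAK20671 and to 66.7 to 232 in the other 8 libraries, without overlap. The normalised values below are the deposited ones, in which the reads of a library were divided by its size factor. They are not divided by transcript length, so levels are compared between libraries and not between genes. Where reads of different genes are set against each other below, as counts, ratios or shares, they give no relative transcript level.

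An action potential of a heart muscle cell starts with an inward sodium current and ends with outward potassium currents. A transient outward current carried by Kv4 channels shapes the early notch, the rapid and slow delayed rectifiers end the plateau, and the inward rectifier holds the resting potential. Pacemaker current through HCN channels belongs mainly to the sinoatrial node and the conduction system, and channels gated by ATP couple the membrane to the energy state of the cell.

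**Figure D1:**
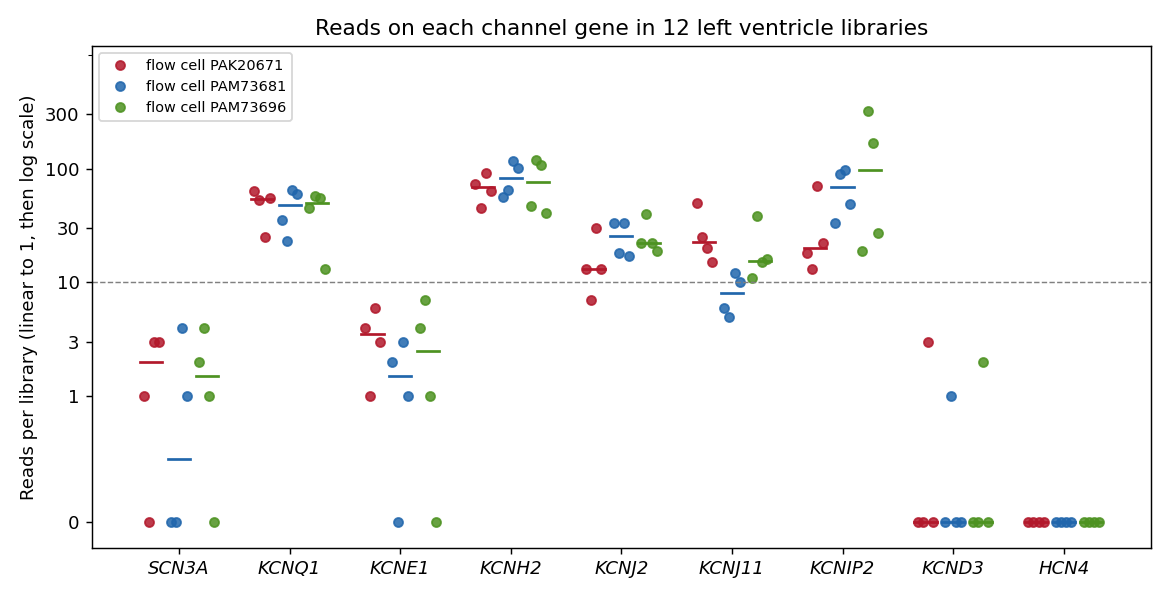
Reads per library (vertical axis, linear up to 1 and logarithmic above) for the 9 channel genes, with 1 point per library, colours for the 3 flow cells, a short line at the median of each flow cell and a dashed line at the minimum of 10 reads used for testing. KCNIP2 spread from 13 to 323 reads, SCN3A, KCNE1 and KCND3 stayed at or below 7 reads in every library, and HCN4 had no read.

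SCN3A encodes a sodium channel alpha subunit that is best known from neurons. It had 19 reads in all: 1, 0, 3 and 3 reads in the libraries of flow cell PAK20671 (cats 11, 23, 30 and 31), 0, 0, 4 and 1 on PAM73681 (cats 10, 15, 35 and 36) and 2, 4, 1 and 0 on PAM73696 (cats 37, 38, 29 and 22). Reads were found in 8 libraries and the flow cells overlapped. Counting error alone gives a mean this low a coefficient of variation of 82.1%, against an observed 96.0%.

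KCNQ1 encodes the pore of the slow delayed rectifier. Its 550 reads were spread over all libraries, with 63, 53, 25 and 55 reads on PAK20671, 35, 23, 65 and 60 on PAM73681 and 45, 58, 55 and 13 on PAM73696. The normalised value ranged from 17.6 in cat 22 to 71.2 in cat 23, with a median of 43.3 and a mean of 44.0 ± 17.0 (SD, n = 12). The lowest and the highest library lay on different flow cells, and the 3 flow cells covered largely the same range.

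KCNE1, which encodes the small beta subunit that slows the KCNQ1 channel, had only 32 reads. They were 4, 1, 6 and 3 on PAK20671, 2, 0, 3 and 1 on PAM73681 and 4, 7, 1 and 0 on PAM73696, so that cats 15 and 22 had none. KCNQ1 had more reads than KCNE1 in 12 of 12 libraries, between 4.2 and 60 times as many in the 10 libraries where the ratio could be formed. The ratio is one of counted reads. Transcript lengths were not used, and how reads relate to molecules of each gene was not tested. The other KCNE genes were as sparse, with 20 reads for KCNE2, 29 for KCNE3, 14 for KCNE4 and 1 for KCNE5.

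KCNH2 encodes the pore of the rapid delayed rectifier, often called hERG. It had 74, 45, 91 and 63 reads on PAK20671, 56, 65, 116 and 101 on PAM73681 and 47, 120, 107 and 41 on PAM73696, 926 in all. The normalised value ranged from 35.7 in cat 11 to 119 in cat 29, with a mean of 73.8 ± 22.7 (SD, n = 12). Its coefficient of variation was 30.8%, the lowest of the 5 tested members, of which counting error would give 11.8%. Reads on KCNH2 exceeded those on KCNQ1 in 11 of 12 libraries.

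KCNJ2 encodes the main inward rectifier Kir2.1. Its normalised value was 6.27, 9.40, 25.3 and 10.4 on PAK20671 (7 to 30 reads), 37.2, 24.5, 26.0 and 15.1 on PAM73681 (17 to 33 reads) and 31.5, 29.4, 24.4 and 25.7 on PAM73696 (19 to 40 reads). Cats 11, 23 and 31 lay below every library of the other flow cells, and cat 30 lay among them. KCNJ12, a second Kir2 gene, had a single read, and KCNJ4 had 46.

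KCNJ11 encodes Kir6.2, the pore of the ATP-sensitive channel of heart muscle. Its normalised value was 24.1, 33.6, 16.8 and 12.0 on PAK20671 (15 to 50 reads), 6.764, 6.808, 9.453 and 8.904 on PAM73681 (5 to 12 reads) and 15.7, 27.9, 16.6 and 21.6 on PAM73696 (11 to 38 reads). All 4 libraries of PAM73681 lay below the other 8, a split that was noticed in the values. Over all tested genes 0.533% lay wholly below on PAM73681 in this way and 0.465% wholly above. Fibroblast markers were also lowest on PAM73681, as given above, and the part of cell mixture in the KCNJ11 values was not tested. Among its partners, ABCC9, the sulphonylurea receptor SUR2, had 55 to 204 reads and ABCC8, the receptor SUR1, 4 to 75. KCNJ8, the Kir6.1 gene known from vascular muscle and pericytes, had 36 to 475 reads and exceeded KCNJ11 in 12 of 12 libraries.

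KCNIP2 encodes KChIP2, a calcium-binding subunit that brings Kv4 channels to the membrane. Its normalised value was 8.69, 17.5, 59.8 and 17.5 on PAK20671 (13 to 71 reads), 37.2, 123, 77.2 and 43.6 on PAM73681 (33 to 98 reads) and 27.2, 238, 185 and 36.5 on PAM73696 (19 to 323 reads). Cats 38, 29 and 15 were highest and cats 11, 23 and 31 lowest. The mean was 72.5 ± 72.7 (SD, n = 12), with a coefficient of variation of 100%, of which 11.7% is what counts of this size would show. Cats 38 and 29 shared PAM73696 with cats 37 and 22, whose values lay below those of all 4 libraries of PAM73681, so the spread was wide within that flow cell.

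KCND3, which encodes the Kv4.3 pore that KChIP2 partners, had 6 reads in all, with 3 in cat 30, 1 in cat 15, 2 in cat 29 and none in the other 9 libraries. KCND2, the Kv4.2 gene, had none. The subunit was thus seen with 930 reads and its 2 pore genes with 6 reads between them. Which transcript ends and annotation were used for counting was not tested.

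HCN4 encodes the main pacemaker channel of the sinoatrial node. It had 0 of 15753626 reads, which allows up to 0.190 CPM over the pooled libraries and up to 3.8 CPM in the shallowest library. HCN2, the HCN gene known from ventricular muscle, had 2 to 14 reads in every library, while HCN3 had 2 reads in all. Conduction system markers summed to 13.8 to 70.2 CPM, and ISL1 had no read. The partner genes KCNE2 to KCNE5, KCNJ4, KCNJ8, KCNJ12, ABCC8, ABCC9, KCND2, HCN2 and HCN3 were picked for their function, after their values were seen.

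The make-up of the channel reads differed between libraries. KCNIP2 held 8.07% of the reads on the 9 genes in cat 11 and 54.7% in cat 38, whereas the share of KCNH2 lay between 20.3% and 42.3%. Over all libraries, KCNIP2 made up 31.5%, KCNH2 31.4% and KCNQ1 18.6% of these reads.

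**Figure D2:**
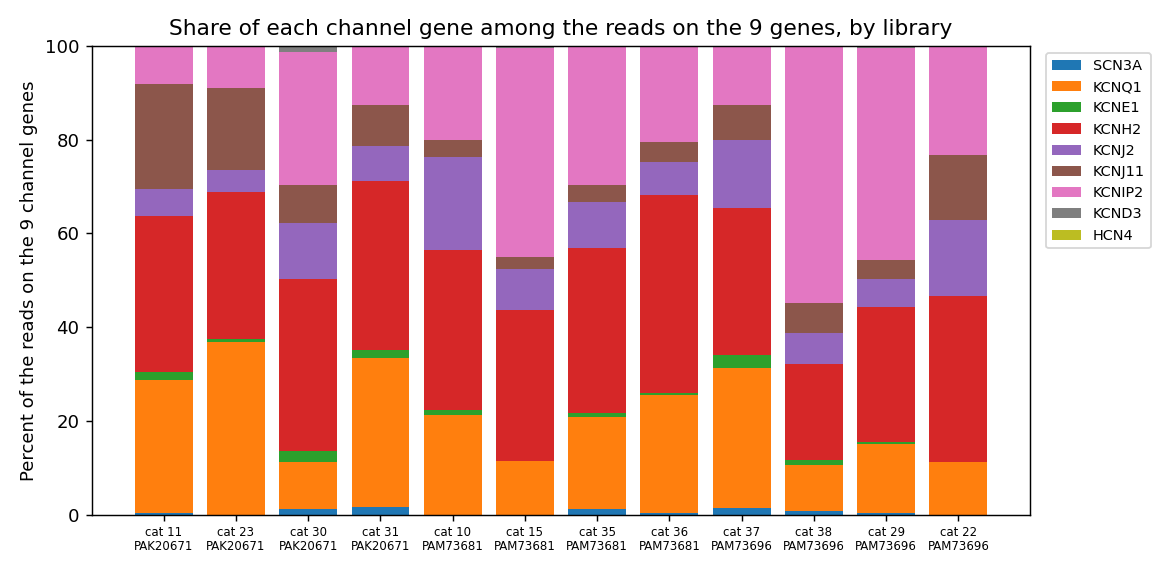
Percent of the reads on the 9 channel genes (vertical axis) taken by each gene in each of the 12 libraries (horizontal axis, with the flow cell under the cat). KCNIP2 took 54.7% in cat 38 and 45.1% in cat 29 but 8.07% in cat 11 and 9.03% in cat 23.

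Flow cells are the grouping that the labels give, and the comparison between them asks how far a channel gene's level moved with the run and the cats on it, which cannot be told apart. By the study's cohort description the cats of the flow cells also differ in age, fibrosis and cause of death, and these belong to the same difference. Of the 9 genes, 5 passed the filter of at least 10 reads in at least 3 libraries (KCNQ1, KCNH2, KCNJ2, KCNJ11 and KCNIP2), and SCN3A, KCNE1, KCND3 and HCN4 did not. The tests used limma on log2(value + 1), a scale that understates changes at low values, with Benjamini-Hochberg adjustment over 8820 genes. None of the 5 was called on PAK20671 against the other flow cells at an adjusted p under 0.05, where 3.56% of all tested genes were called lower and 1.81% higher. At an unadjusted p under 0.05, KCNJ2, KCNIP2 and KCNH2 were lower (3 of 5) and none was higher, against 12.1% lower and 9.78% higher over all tested genes. The median difference of the 5 was -0.58, and that of all tested genes 0.03.

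KCNIP2 had a mean of 25.9 ± 23 (SD, n = 4) on PAK20671 and 95.9 ± 78.8 (n = 8) on the others, a log2 difference of -1.78 (SE 0.57, limma adjusted p = 0.0788). The fold is 3.43 on the log2(value + 1) scale. KCNJ2 had 12.8 ± 8.47 (n = 4) against 26.7 ± 6.39 (n = 8), a log2 difference of -1.14 (SE 0.33, limma adjusted p = 0.0578), or 2.20-fold. In both genes 3 of the 4 libraries of PAK20671 lay below the lowest of the other 8, and cat 30 did not. Cat 30 was the highest library of PAK20671 in both genes, so leaving it out had to enlarge the differences. That fit is therefore no support of its own. Without cat 30, the differences were -2.28 for KCNIP2 (limma adjusted p = 0.0309) and -1.51 for KCNJ2 (limma adjusted p = 0.0130), both past the threshold. Among 21 alternatives, 4 called KCNIP2 and 3 called KCNJ2. The call was also passed without cat 37 for KCNIP2 (adjusted p = 0.0430) and without cat 36 for KCNJ2 (adjusted p = 0.0458), and over all alternatives the adjusted p ran from 0.0111 to 0.312 for KCNIP2 and from 0.0130 to 0.336 for KCNJ2. None of the 5 genes separated PAK20671 fully from the other libraries, as 4.21% of all tested genes did.

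KCNH2 was at 55.8 ± 17.2 (n = 4) on PAK20671 and 82.8 ± 20.2 (n = 8) elsewhere, with a log2 difference of -0.58 (SE 0.25, limma adjusted p = 0.191). KCNQ1 differed by -0.16 (SE 0.36, limma adjusted p = 0.831) and KCNJ11 by 0.63 (SE 0.31, limma adjusted p = 0.248). Some marker lists moved with this contrast: 3 of 6 fibroblast markers and 1 of 3 smooth muscle markers were called higher on PAK20671 and 4 of 8 ventricular cardiomyocyte markers lower. Over all tested genes 1.81% were called higher and 3.56% lower. No tested marker was called in the endothelial, leukocyte, atrial, conduction system or neural lists. The summed cardiomyocyte markers overlapped, at 101433 to 142913 CPM on PAK20671 and 100339 to 154598 CPM on the others. Most of this sum is MYL2, with a median of 104294 reads against 19354.5 for MYL3, the next marker. It therefore says little about the other markers of the list. The part of cell mixture in the lower KCNJ2 and KCNIP2 values was not tested. In bulk tissue, fewer cells of a type and less RNA per cell cannot be told apart.

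Between PAM73681 and PAM73696, KCNJ11 stood out among the 5 members with a mean of 7.98 ± 1.40 (SD, n = 4) against 20.5 ± 5.61 (n = 4). The 4 libraries of PAM73681 did not overlap the 4 of PAM73696, which was so for 4.21% of all tested genes in this contrast. The log2 difference was -1.24 (SE 0.36), with an unadjusted limma p of 0.00332 and an adjusted p of 0.380. Among all tested genes 0% were called after adjustment, the smallest adjusted p being 0.0582, and at an unadjusted p under 0.05 3.92% were lower and 3.97% higher. KCNJ11 on PAM73681 rests on 33 reads in all, 5 to 12 per library. Counts of this size in a library give by themselves a coefficient of variation of 35.6%, above the 17.5% observed. The other 4 members had adjusted p values of 0.923 and above.

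**Figure D3:**
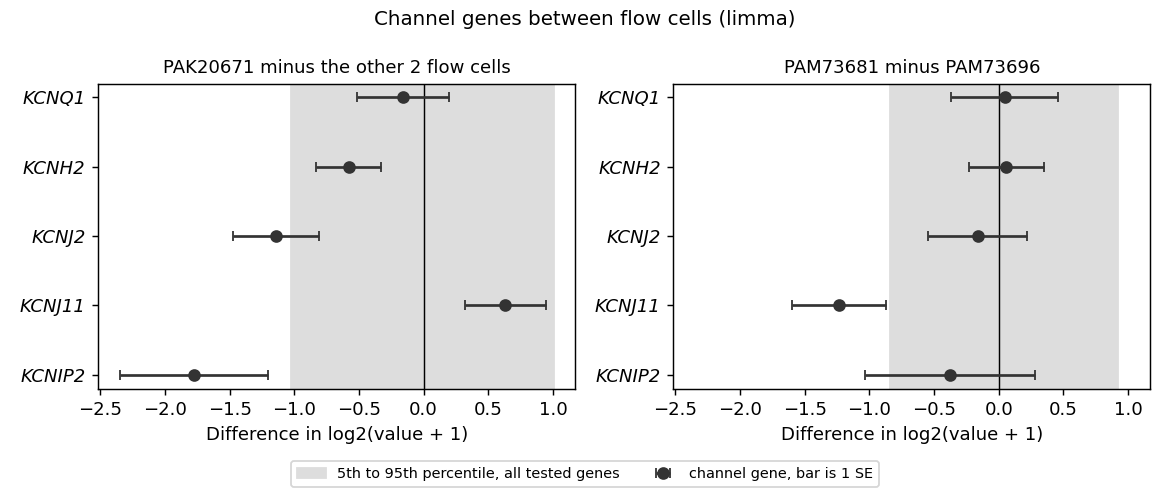
Differences in log2(value + 1) between flow cells (horizontal axis) for the 5 tested channel genes, with bars of 1 SE and a grey band from the 5th to the 95th percentile of all 8820 tested genes. Left, KCNIP2 at -1.78 and KCNJ2 at -1.14 lie below the band for PAK20671 against the others. Right, KCNJ11 at -1.24 lies below the band for PAM73681 against PAM73696.

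Members were next compared with each other over the 12 libraries, on log2(value + 1), in 10 pairs. KCNH2 and KCNIP2 rose and fell together, with a Pearson r of 0.879 (permutation p = 0.0001, over 100000 random orders) and a Spearman rho of 0.839 (permutation p = 0.0011). When cats 11 and 29, the extremes of KCNH2, were left out, r was 0.785. Centred on the mean of each flow cell, r was 0.826. With each library left out in turn, r lay between 0.834 and 0.919, and with reads that were not scaled it was 0.797. Libraries share a size factor and their cell mixture, and a correlation of 2 genes over libraries is a description of these cats.

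Of the 8819 other tested genes, KCNH2 ranked 7th by its r with KCNIP2, and KCNIP2 ranked 22nd by its r with KCNH2. KCNJ2 and KCNIP2 had an r of 0.674 (permutation p = 0.0169) and a rho of 0.441 (permutation p = 0.154), and the r fell to 0.387 within flow cells and to 0.366 without cats 11 and 23, so the relation did not hold. KCNH2 and KCNJ2 had an r of 0.605 (permutation p = 0.0382), a rho of 0.280 (permutation p = 0.379) and an r of 0.295 within flow cells. In the other 7 pairs r lay between -0.375 and 0.361 in all 12 libraries or without 2 of them. These p values are not adjusted for the 10 pairs.

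**Figure D4:**
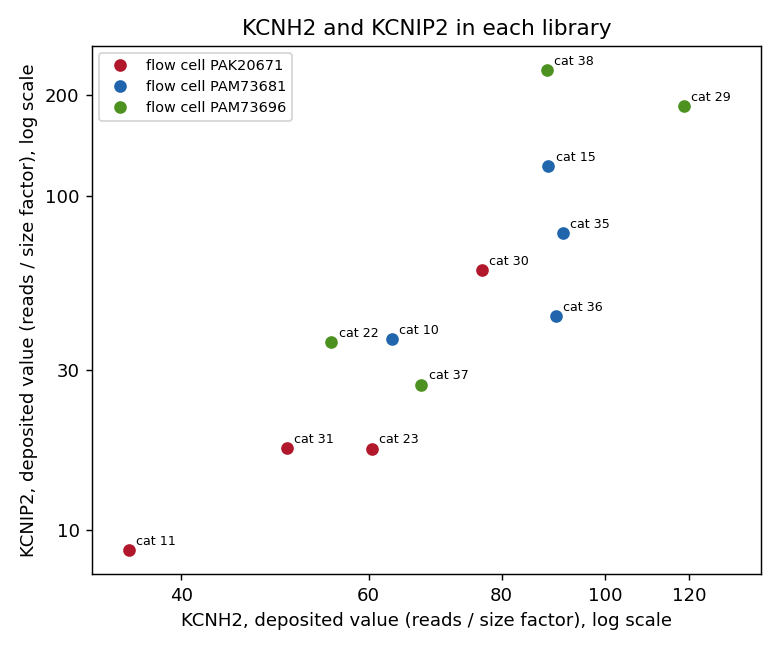
Normalised value of KCNH2 (horizontal axis) against that of KCNIP2 (vertical axis), both on log scales, with 1 point per library, named by cat and coloured by flow cell. Cat 11 is lowest in both genes at 35.7 and 8.69, and cats 29 and 38 are highest in KCNIP2 at 185 and 238.

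The genes with the most similar pattern over the 12 libraries were named for each tested member by the highest Pearson r. For KCNIP2 they were GPAT3 (r = 0.932), an enzyme of glycerolipid synthesis, FLAD1 (0.916), which makes the cofactor FAD, and PPP1R3G (0.904), a subunit that targets a phosphatase to glycogen. For KCNH2 they were LOC101089499 (0.926), SLC25A4 (0.911), the ADP/ATP carrier of heart mitochondria, and UBTD1 (0.906). These remained high within flow cells, between 0.861 and 0.938.

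For KCNJ2 the nearest genes were LOC109495654 (0.943), TMEM182 (0.902), a membrane protein of muscle, and PEX6 (0.887), a peroxisome protein, and for KCNQ1 they were LOC101085223 (0.836), OAT (0.822) and HINFP (0.807). LOC109495654 and LOC101085223 had at most 14 and 12 reads per library. For KCNJ11 they were LUM (0.891), which encodes the matrix proteoglycan lumican and is one of the fibroblast markers used here, G3BP1 (0.890), a stress granule protein, and SFRP1 (0.884), a secreted Wnt modulator. Within flow cells these 3 fell to 0.774, 0.693 and 0.663.

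The study ranked genes by their correlation with tissue traits, so the members were compared with the myocardial fibrosis percentage (8 cats), age (9 cats) and adipocyte percentage (10 cats) of the cats whose numbers are in its list. The traits were matched by cat number from the study's cohort description. After adjustment 0% of the 8820 tested genes were called for fibrosis, 0% for age and 0% for adipocytes, the smallest adjusted p being 1, 0.486 and 1 by Spearman's rho with permutation. Unadjusted, 2.83% passed p under 0.05 for fibrosis, 4.72% for age and 3.11% for adipocytes, and none of the 5 tested members did for any trait. With limma slopes 0 genes were called for each trait as well. In simulated data the rho test recovered 0%, 4.5% and 0% of 200 changed genes for fibrosis, age and adipocytes after adjustment. With so few cats it could hardly call a gene, so the lack of calls cannot decide whether genes follow these traits.

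For fibrosis, KCNH2 had a rho of -0.571 (exact permutation p = 0.151), KCNJ2 of -0.548 (exact p = 0.171) and KCNIP2 of -0.476 (exact p = 0.243). KCNQ1 was at 0.143 (exact p = 0.752) and KCNJ11 at 0.0952 (exact p = 0.840). The middle 90% of all tested genes lay between -0.571 and 0.571. The Pearson r of KCNH2 was -0.277 (exact permutation p = 0.521), leaving out cats 23 and 15, whose fibrosis was farthest from the median, it was -0.751, and with each flow cell centred, which left 7 cats, it came to -0.189 (exact p = 0.764), so the relation is not a steady one. For KCNIP2 the corresponding values were -0.281 (exact p = 0.501), -0.620 and -0.123, and for KCNJ2 -0.363 (exact p = 0.377), -0.393 and -0.302.

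SCN3A and KCNE1, both below the filter, had lower rho values than these, and their p values are not adjusted. Over the 8 cats, SCN3A had no read in cats 23, 10 and 15 and 4 reads in cats 35 and 38 (rho = -0.903, exact permutation p = 0.00536). Its r was -0.862 (exact p = 0.00640), -0.896 without cats 23 and 15 and -0.890 after centring on flow cells (exact p = 0.0278, 7 cats). KCNE1 had a rho of -0.714 (exact permutation p = 0.0576) and an r of -0.689 (exact p = 0.0553), which became -0.365 when cats 23 and 15 were left out and -0.849 after centring on flow cells (exact p = 0.0347, 7 cats). KCNE1, KCNH2, KCNJ2, KCNIP2 and SCN3A were among the genes that the study's own ranking on largely the same cats brought forward for fibrosis, so their negative sign here is no independent evidence. With 0 to 7 reads a library, a step of 1 read changes the order of the cats in both genes. Library depth had a rho of -0.429 with fibrosis (exact p = 0.299).

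For age, the rho of the 5 tested members lay between -0.267 for KCNQ1 and 0.283 for KCNJ2. KCNJ2 had the highest value within flow cells (r = 0.698, 9 cats, exact permutation p = 0.111) and a limma slope with flow cell as covariate at an adjusted p of 0.439. SCN3A and KCNE1 had rho values of -0.153 and 0.0667. KCND3 had a rho of 0.730 (exact p = 0.0278), which rests on 3 reads in cat 30 and 1 in cat 15 and on none in the other 7 cats. Library depth fell with age (rho = -0.700, exact permutation p = 0.0433), and its part in these values was not tested.

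For the adipocyte percentage, KCNJ11 had the lowest rho of the tested members at -0.430 (permutation p = 0.217), and KCNH2 and KCNIP2 were both at 0.00606 (permutation p = 1). SCN3A had a rho of -0.534 (permutation p = 0.118) and KCNE1 of -0.467 (permutation p = 0.179). Adipocyte markers themselves were sparse, at 1.14 to 9.73 CPM in sum. In all, 24 relations of 8 members with 3 traits were computed, and HCN4, with no read, entered none.

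**Figure D5:**
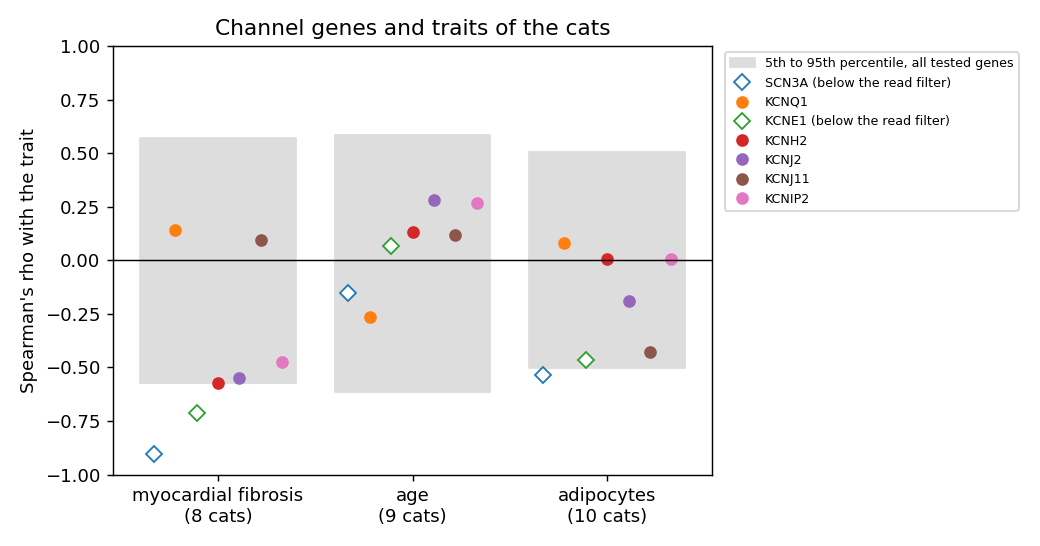
Spearman's rho with myocardial fibrosis, age and adipocyte percentage (horizontal axis, with the number of cats) for 7 channel genes, where open diamonds mark genes below the read filter and the grey band spans the 5th to the 95th percentile of all 8820 tested genes. For fibrosis, SCN3A at -0.903 and KCNE1 at -0.714 lie below the band and KCNH2 at -0.571 lies at its edge.

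A wider list of sodium and potassium channel genes, their partners, the sodium-potassium pump and anchoring proteins set these members in context. Of 78 genes named, 76 were listed, 70 had a read and 25 could be tested. On PAK20671 against the other flow cells 2 of the 25 were called lower and 0 higher, beside 3.56% lower and 1.81% higher over all tested genes, and the median difference was -0.17. Among them, FXYD1, which encodes phospholemman, a regulator of the sodium-potassium pump, had a mean of 521 ± 61.0 (SD, n = 4) on PAK20671 and 1010 ± 248 (n = 8) elsewhere, without overlap (log2 difference -0.93, SE 0.18, limma adjusted p = 0.00973). Without cat 11 the log2 difference was -0.90 and the limma adjusted p was 0.0506.

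None of the 25 was called between PAM73681 and PAM73696 or with a trait after adjustment. At an unadjusted p under 0.05, 0 passed for fibrosis, 1 for age and 1 for adipocytes. Of 26 voltage-gated potassium channel genes and partners in the wider list, 23 had a read but 0 reached the filter, and KCND1, KCND2 and KCNIP1 had no read. The wider list leaves out the members, among which the voltage-gated KCNQ1 and KCNH2 and the partner KCNIP2 did reach the filter. Of 8 inward rectifier and ATP-sensitive channel genes 5 were tested, and of 16 listed sodium channel genes and partners 7 were tested, with 0 called in each.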

How the data were processed

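The signal values that were deposited are reads per gene over 1 size factor per library, as the values themselves show. The authors called bases with Guppy, kept reads above a quality minimum, mapped them to felCat9 with minimap2 and counted them with featureCounts, whose strand setting is not given in the sources used here. Whole reads were recovered for 100% of values (tolerance 1e-06 reads). Overlapping non-coding genes listed for SCN3A, KCNQ1, KCNH2 and KCND3 had 0 reads.

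The 8820 genes that reached 10 reads in 3 or more of the 12 libraries were tested. limma 3.58.1 with an intensity trend was fitted to log2(value + 1) for flow cells. Spearman's rho was tested by exact permutation, or 100000 random orders for adipocytes, two-sided. edgeR 4.0.16 and DESeq2 1.42.0 on recovered reads, other pseudocounts, scalings, filters, a barcode block, and each library left out were alternatives. In simulated data limma recovered 66% of 4-fold and 30% of 2-fold changes between flow cells, and rho recovered 0%, 4.5% and 0% of 200 changed genes for fibrosis, age and adipocytes after adjustment. The replicates are cats, so p-values cover the spread between cats. They hold no estimate of the spread between flow cells or runs.

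All 9 members were named, with called genes of the wider list, apart from a result that is not reported here, and the 3 most similar genes per member. Members and lists were chosen with earlier results of these data known. Gene lengths, coordinates and sequences were not used here. Counting limits cover counting error only. Python 3.11.15 and R 4.3.3 were used.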

Additional observations from a re-analysis of the deposited data

Results flagged for a closer look

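Among 24 sets of 4 libraries, each a member on a flow cell, 4 had a library far from the other 3, where chance flags about 1 set in 20. KCNH2 in cat 10 on flow cell PAM73681 had a normalised value of 63.1 (56 reads), while the other 3 libraries lay between 88.5 and 91.4. KCND3 was flagged on each flow cell because a single library had reads: its value was 2.53 in cat 30 (3 reads), 1.36 in cat 15 (1 read) and 2.22 in cat 29 (2 reads), with 0 in the others. In a gene with 6 reads such a flag marks where the reads fell.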

How the results depend on the processing

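SCN3A, KCNE1, KCND3 and HCN4 had too few reads for a test of levels, and comparisons had 4 libraries a flow cell and 8 to 10 cats a trait. Genes called on PAK20671 against the others numbered 474 (160 higher, 314 lower), 832 with DESeq2 and 102 (96 higher, 6 lower) without scaling, which moves the median of all genes by 0.38, to 0.41. Leaving out each library gave 54 to 529 genes, with 54 without cat 11 and 165 without cat 31, 283 without cat 15 and 314 without cat 29. Between PAM73681 and PAM73696 0 genes were called by limma (696 at an unadjusted p under 0.05), 1 with a pseudocount of 2, 1 with TMM, 5 without scaling, 23 with DESeq2 and 0 to 2 with a library left out. For traits 0 were called under every alternative, except 1 for adipocytes without cat 11 (0 to 1 with a cat left out). The rho test hardly called a gene after adjustment in simulated data with 8 to 10 cats, so these counts cannot show that no gene follows a trait.

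KCNIP2 on PAK20671 was also called with DESeq2 (log2 difference -1.84, adjusted p = 0.0210) and KCNJ2 with the stricter filter of 20 reads in 6 libraries (adjusted p = 0.0463). Barcode numbers did not pair libraries: across flow cells deviations of libraries with the same barcode correlated at -0.0831 to 0.108. With the barcode as a replicate block, 569 genes were called and KCNIP2 was at -1.78 (adjusted p = 0.0111), and no other member changed its call. Without scaling FXYD1 was not called on PAK20671 (adjusted p = 0.406).

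Directions that turned were of small values, and the cause was not tested. KCNQ1 on PAK20671 was 0.22 without scaling and -0.46 to 0.11 with a library left out. Between PAM73681 and PAM73696 KCNQ1 was -0.058 with edgeR and -0.070 with DESeq2. With a library left out, differences in that contrast were -0.35 to 0.25 for KCNQ1, -0.11 to 0.25 for KCNH2, -0.36 to 0.057 for KCNJ2 and -0.90 to 0.13 for KCNIP2. Without scaling, rho with fibrosis was -0.357 for KCNQ1 and -0.0476 for KCNJ11, with age -0.300 for KCNH2, -0.133 for KCNJ11 and -0.00840 for KCNE1, and with adipocytes -0.382 for KCNQ1, -0.212 for KCNH2 and -0.0545 for KCNIP2. Genes at an unadjusted p under 0.05 then split 5 positive and 417 negative for fibrosis (127 and 123 with scaling), 6 and 926 for age (191 and 225) and 6 and 254 for adipocytes (136 and 138). With the libraries labelled 22 and 29 entered as those cats, rho was -0.0182 for KCNQ1 and fibrosis, -0.100 for KCNH2 and -0.0364 for KCNIP2 and age, and -0.182 for KCNQ1, -0.252 for KCNH2 and -0.175 for KCNIP2 and adipocytes. Entered as cats 16 and 25 it was -0.189 for KCNE1 and age and -0.0559 for KCNQ1 and adipocytes, and as cats 25 and 16 -0.155 for KCNE1 and age. KCNJ11 had a rho of -0.0476 with total fibrosis and a slope on age of -0.0097 with flow cell as covariate. KCNIP2 and adipocytes had an r of -0.0176 and slopes of -0.0244, or -0.0295 with flow cell.

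With a cat left out, rho with fibrosis was -0.286 to 0.357 for KCNQ1 and -0.357 to 0.321 for KCNJ11. For age it was -0.476 to 0.0476 for KCNQ1, -0.0238 to 0.619 for KCNH2, -0.0238 to 0.405 for KCNJ11, -0.464 to 0.0240 for SCN3A and -0.167 to 0.381 for KCNE1. For adipocytes it was -0.117 to 0.250 for KCNQ1, -0.217 to 0.383 for KCNH2 and -0.250 to 0.217 for KCNIP2. The unadjusted p of SCN3A with fibrosis ran from 0.000490 to 0.0307 and that of KCNE1 from 0.0341 to 0.256 over their alternatives. When all genes with a read were tested by rho, which takes in both genes, 504 of 17477 passed an unadjusted p under 0.05. None was called for fibrosis there, the smallest adjusted p by Spearman's rho with permutation being 0.867. The alternatives for KCNH2 with KCNIP2 were chosen after seeing the data.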
